A study of Arabidopsis thaliana with 60 samples.

Results

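The 48 nuclear genes described here encode the antenna proteins, the photosystem subunits and the electron carriers of the thylakoid membrane in Arabidopsis thaliana. They were taken by gene identifier from a fixed list, and all 48 had a row among the 21450 genes listed for the series. They comprise 4 antenna genes of photosystem I (PSI), 14 antenna genes of photosystem II (PSII), 12 PSI subunit genes, 10 PSII subunit genes, and 8 genes of electron carriers and the chloroplast ATP synthase. By chromosome, 19 of them lie on chromosome 1, 8 on chromosome 2, 7 on chromosome 3, 9 on chromosome 4 and 5 on chromosome 5.

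Poly(A) RNA was profiled from the aerial tissue of 15 plants, 5 each of triparental triploids (TT), biparental triploids (BT) and biparental diploids (BD). The mother was an ein3-1 mutant in every cross, in the Columbia background. TT plants arose after pollination with 2 different donors, so that each embryo had received a sperm from both, the driver pRPS5a::mGAL4-VP16 from one and pUAS::BAR-YFP, which joins herbicide resistance to a fluorescent protein, from the other. BT and BD plants had a single father with both constructs, given as pRPS5a::mGAL4-VP16/- and pUAS::BAR-YFP/-, a colchicine-induced 4n line for BT and a 2n line for BD. All plants therefore carried both constructs and had survived glufosinate. They were moved to soil at day 9 after sowing, their YFP signal and ploidy were checked at day 17, and they were harvested at day 18 from long days of 16 h light and 8 h dark at 23 °C. From each plant, 4 technical replicates, 60 samples in all, had been merged by the authors, so that n is 5 plants a group. The labels do not say whether plants of a group came from separate crosses, and p-values measure the spread between these plants only.

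Oxygenic photosynthesis couples PSII, which takes electrons from water, to PSI, which passes them on to ferredoxin. Plastocyanin and the cytochrome b6f complex connect both photosystems, and the ATP synthase uses the proton gradient that the electron flow builds up. The chloroplast genome encodes the reaction centres, while the nucleus encodes the chlorophyll-binding antenna proteins (LHCA for PSI, LHCB for PSII) and most peripheral subunits, whose transcripts are among the most abundant of a leaf and are known to follow light, the circadian clock and signals from the plastid.

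Between 19534646 and 30756482 reads per plant were recovered on listed genes, and the 48 genes drew at least 1672 reads each in every plant, so that counting error was small beside the differences between plants. Leaf mesophyll markers were abundant in every plant: RBCS1A, RCA and CA1 summed to 28085 to 34572 TPM in TT, 16128 to 31621 TPM in BT and 22620 to 32569 TPM in BD. The 5 floral markers summed to at most 17.05 TPM, 2 of 4 meristem markers had values and summed to at most 0.960 TPM, and 0 of 3 root markers had values. Genes of a whole chromosome or of the distal part of chromosome 1 were raised in 4 plants (BT plants 2, 3 and 5 and BD plant 4), as described below for the genes that lie there. In bulk tissue, fewer mesophyll cells and less transcript per cell cannot be told apart.

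The 48 genes together took 9.09% to 18.95% of the TPM of a plant, a measure of transcript abundance scaled by transcript length and to a fixed total. Of the 100 genes with the highest mean TPM, 40 were among them, and 4 were in the top 10. Levels are compared between genes on this scale only, and normalized counts (reads divided by a size factor of the plant) are compared between plants. The PSI antenna gene with the highest level was LHCA4 (AT3G47470), with 5361, 7190.5, 6955, 8514 and 6073 TPM in TT plants 1 to 5, 6086, 8023, 8615, 7430.2 and 4098 TPM in BT, and 5513, 7826, 9509, 5941 and 6457 TPM in BD. Its group means of 6819 ± 1195 TPM in TT, 6851 ± 1802 TPM in BT and 7049 ± 1627 TPM in BD lay closer together than the plants of any 1 group (SD, n = 5 each). LHCA2 (AT3G61470) had the lowest level of that class, with 2361, 3104, 2906, 2989 and 2812 TPM in TT plants 1 to 5, 2357, 3363, 2740.3, 2977 and 1624 TPM in BT, and 2262, 3119.9, 3134, 2452 and 2791 TPM in BD. BT plant 5 was the lowest and BT plant 2 or BD plant 3 the highest for these genes, and the groups overlapped.

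Among the PSII antenna genes, LHCB1.3 (AT1G29930), which encodes a protein of the main trimeric light-harvesting complex, had the highest level of all 48 genes. It had 13040.1, 13411, 13142, 15891 and 14069 TPM in TT plants 1 to 5, 11273, 15297, 12903, 14806 and 8144 TPM in BT, and 11500.5, 15208, 14584, 11322 and 13955 TPM in BD. The group means were 13911 ± 1177 TPM in TT, 12485 ± 2906 TPM in BT and 13314 ± 1794 TPM in BD (SD, n = 5 each). Its neighbours on chromosome 1, LHCB1.1 and LHCB1.2, averaged 7325 and 8120 TPM over all plants. LHCB4.3 (AT2G40100), which encodes a form of the monomeric antenna protein CP29, was the lowest of the 48, with 78.6, 99.7, 97.2, 121 and 96.1 TPM in TT plants 1 to 5, 62.2, 108, 121, 89.2 and 56.3 TPM in BT, and 59.5, 138, 122, 93.2 and 100.4 TPM in BD. It averaged 98.5 ± 14.99 TPM in TT, 87.4 ± 28.2 TPM in BT and 103 ± 29.9 TPM in BD. BT plant 5 was low for both genes, whereas TT plant 4 was highest for LHCB1.3 and BD plant 2 for LHCB4.3, and the groups overlapped. LHCB4.1 (AT5G01530), the main CP29 gene, averaged 2883 TPM. Reads of 75 bases can be shared between near-identical copies. In the RefSeq transcripts, LHCB1.1, LHCB1.2 and LHCB1.3 shared up to 10.4% of their 75-base windows with each other, LHCB1.4 and LHCB1.5 up to 9.27%, and LHCB2.1 and LHCB2.2 up to 19.1%, so that levels within these groups are uncertain. LHCA2 shared 3.07% with a locus outside the list, and the other 40 genes shared none.

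Among the PSI subunits the extremes were PSAO and PSAH1. PSAO (AT1G08380), which helps PSI to accept excitation from the mobile antenna, had 4605, 5890.5, 5678, 6026 and 5611 TPM in TT plants 1 to 5, 4867, 6490.3, 5581, 6079 and 2996 TPM in BT, and 4532, 5760.2, 6303, 4764 and 5176 TPM in BD. PSAH1 (AT3G16140), one of a pair of genes for the subunit PSI-H at the same face of the complex, had 854, 1106, 1085, 1135 and 1014 TPM in TT plants 1 to 5, 876, 1064, 924, 1016 and 628 TPM in BT, and 837, 1146, 1093, 897 and 1017 TPM in BD. Both were lowest in BT plant 5 and low in the plants numbered 1 of each group, and the groups overlapped. The means were 5562 ± 560 TPM in TT, 5203 ± 1374 TPM in BT and 5307 ± 726 TPM in BD for PSAO, and 1039 ± 112 TPM in TT, 902 ± 170 TPM in BT and 998 ± 130 TPM in BD for PSAH1 (SD, n = 5 each).

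Among the PSII subunits PSBR (AT1G79040), which stabilizes the oxygen-evolving complex, was highest. Its level was 5706 ± 988 TPM in TT, 6576 ± 1751 TPM in BT and 6551 ± 1932 TPM in BD (SD, n = 5 each). PSBO2 (AT3G50820), the minor form of the manganese-stabilizing protein, was lowest, with 751, 968, 946, 859 and 829 TPM in TT plants 1 to 5, 692, 919.6, 855, 808 and 479 TPM in BT, and 661, 968, 902, 645 and 806 TPM in BD. It was lowest in BT plant 5, and the groups overlapped.

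Plastocyanin, which carries electrons to PSI, accounted for both extremes of the carriers. PETE2 (AT1G20340) had 3785, 4531, 4444, 4947 and 4310.3 TPM in TT plants 1 to 5, 3600.4, 4949.7, 4816, 4873 and 2490.5 TPM in BT, and 3335, 4805, 5717, 3655 and 4454 TPM in BD. PETE1 (AT1G76100) had 259, 294, 284, 283 and 293 TPM in TT plants 1 to 5, 237, 279, 342, 278 and 330.4 TPM in BT, and 274, 310.2, 268, 418 and 299 TPM in BD. PETE2 was lowest in BT plant 5 and highest in BD plant 3, whereas PETE1 was lowest in BT plant 1 and highest in BD plant 4. The groups overlapped for both genes.

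The summed level of the 48 genes differed more between plants of a group than between groups. It was 13.13, 16.63, 16.16, 17.05 and 15.44% of the TPM in TT plants 1 to 5, 12.88, 18.95, 15.85, 16.27 and 9.09% in BT plants 1 to 5, and 12.4, 17.2, 17.6, 12.88 and 14.78% in BD plants 1 to 5. The group means were 15.68 ± 1.54% in TT, 14.61 ± 3.76% in BT and 14.97 ± 2.39% in BD (SD, n = 5 each). BT plants held both the lowest and the highest value of the series, and the TT plants lay within the range of either biparental group. All 5 classes had BT plant 5 as their lowest plant, as the stacked plot of class sums per plant shows. The PSII antenna alone took 5.08 to 6.74% in TT, 3.49 to 7.33% in BT and 4.62 to 6.70% in BD, and the PSI subunits took 2.78 to 3.62% in TT, 1.88 to 4.16% in BT and 2.73 to 3.82% in BD.

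**Figure D1:**
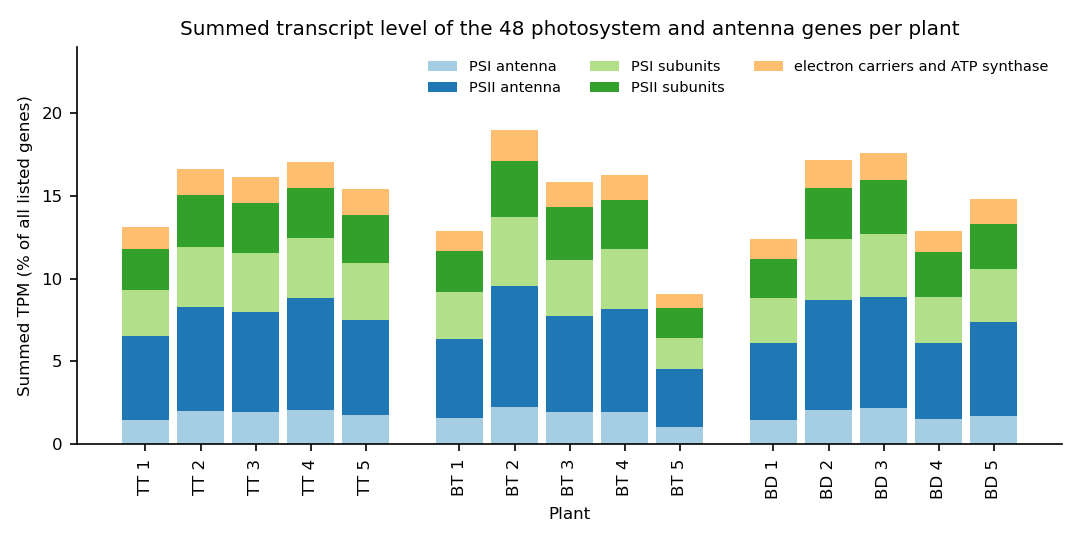
Summed TPM of the 48 genes in each of the 15 plants, in percent of the TPM of all listed genes, stacked by class (vertical axis from 0, plants on the horizontal axis in the order TT, BT, BD). The totals run between 9.09% in BT plant 5 and 18.95% in BT plant 2, and all 5 classes are low in BT plant 5.

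Nearly all of the genes were low in the same plants and high in the same plants. In TT plant 1, BT plant 1 and BD plant 1, all 48 genes were below their own mean over the 15 plants, with median deviations of -0.27, -0.33 and -0.44 on the log2 scale of normalized count + 1. In BT plant 5, 47 of 48 were below and the median was -0.90, and in BD plant 4, 46 of 48 were below with a median of -0.31. In TT plants 2 and 4 and BD plant 3 all 48 genes were above their mean, with medians of 0.20, 0.36 and 0.44, and in BT plant 2 it was 45 of 48 with a median of 0.32. BT plant 5 held the lowest value of 43 of the 48 genes, whereas BD plant 3 held the highest value of 23 and BT plant 2 of 17. Whether the shared number 1 of 3 low plants marks a common day, tray or litter is not given in the labels.

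**Figure D2:**
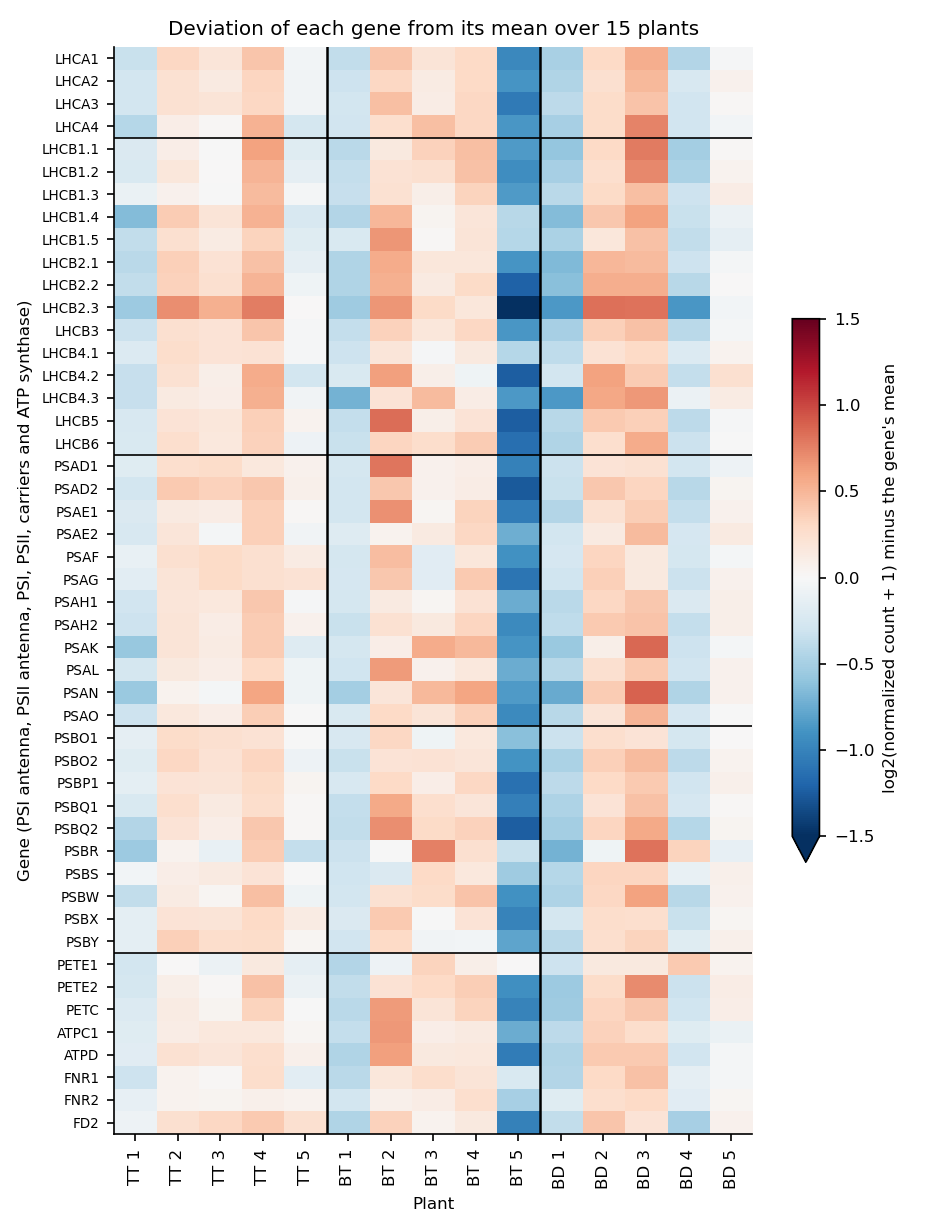
Deviation of log2(normalized count + 1) from each gene's mean over 15 plants, with genes as rows grouped by class and plants as columns in the order TT, BT, BD (blue below and red above 0). Most columns share one colour, with BT plant 5 and the plants numbered 1 in blue, and single cells depart from their column mainly for PETE1, PSBR and LHCB2.3 and for several genes in BT plant 2.

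Across the 15 plants, Pearson's r between a gene and the median of the other 47 had a median of 0.956 (range 0.350 to 0.994), and Spearman's rho a median of 0.934 (range 0.471 to 0.989). Without BT plant 5 and BD plant 1, the plants farthest from the median, r still had a median of 0.922 (range 0.360 to 0.993). The values are descriptive, since the genes share the same libraries and the same size factors. LHCA1, LHCA2 and LHCB2.2 followed the others most closely, each with r = 0.994, and 8 genes had r of at most 0.9. The lowest coefficients were those of PETE1 (r = 0.350) and PSBR (r = 0.604), followed by FNR1, a ferredoxin-NADP+ reductase (r = 0.832), and PSBS, the sensor of energy-dependent quenching (r = 0.834). PETE1 was on the same side of its mean as the other genes in 11 of 15 plants and PSBR in 10 of 15. The pooled SD within groups had a median of 0.43 over the 48 genes on the log2 scale, against 0.26 over the 1065 genes whose mean reached that of the lowest of the 48.

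The size of the swing differed between genes that moved in step. LHCB2.3 (AT3G27690), a gene of the mobile trimeric antenna, had 14956, 35274, 31467, 37156 and 21852 normalized counts in TT plants 1 to 5, 15029, 34539.6, 26607, 24484 and 5941 in BT, and 11992, 38612, 38316, 11954 and 21149 in BD. Its highest plant exceeded its lowest 6.499-fold, the widest ratio of the 48, and its groups overlapped fully. LHCB4.1 had 95527, 131776, 126553, 128041 and 108106 in TT, 88239, 124282, 108178, 121751 and 81479 in BT, and 84423, 127149, 135219, 95495 and 113452 in BD. The ratio of its highest to its lowest plant, 1.66, was the smallest of the 48, although the same plants were low and high as for LHCB2.3. Its lowest plant was BT plant 5, in which chromosome 5 with LHCB4.1 was raised, as described below. There it stood 0.57 log2 units above the genes outside the raised regions. The part of that region in the narrow ratio was not tested. Per log2 unit of the median of the other genes, LHCB2.3 differed by 2.11 units, LHCB2.2 by 1.41, LHCB4.1 by 0.63, FNR2 by 0.55 and PETE1 by 0.22.

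To see whether genes that move together share promoter letters, the 250 bases before the annotated start of each gene were read from RefSeq TAIR10.1 and searched on both strands for 6 motifs known from studies of light and clock regulation in plants. These were the G-box CACGTG, the I-box core GATAAG, the CCAAT-type motif CCAATC, the evening element AAAATATCT and its relatives AAAAATCT and AACAATCT. No motif contains another, but sites can overlap. The CCAATC motif occurred in 14 of 48 promoters (29.2%, exact 95% interval 17.0 to 44.1%), against 10.5% of the promoters of the 21282 listed genes with a window of this length. CACGTG occurred in 9 (18.8%, interval 8.95 to 32.6%), against 7.22%, and GATAAG in 12 (25.0%, interval 13.6 to 39.6%), against 12.3%. The evening element occurred in 1, that of ATPC1 (2.08%), against 2.52%, AAAAATCT in 5 (10.4%), against 6.71%, and AACAATCT in 1, that of PSAE2 (2.08%), against 1.79%. In all, 27 of the 48 promoters held at least 1 of these motifs and 21 held none, but the same share over all listed genes was not counted. These shares are descriptions without a test, and a match is not a known site. The intervals treat the 48 promoters as independent, although several belong to sister genes.

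The promoters of 6 genes that the text returns to are printed 5′ to 3′, ending at the base before the annotated start, with the searched motifs in capitals (CCAATC on the opposite strand reads GATTGG). None of these windows overlaps an annotated exon of another gene. LHCB1.3 has the highest level, the 3 LHCB2 genes include the pair that shares reads and the gene with the widest ratio between plants, LHCB4.1 has the narrowest ratio between plants, and PSBR is one of the 2 genes that follow the others least. The windows are those of LHCB1.3 at chr1:10477635-10477884 (plus strand), LHCB2.1 at chr2:1824481-1824730 (minus strand), LHCB2.2 at chr2:1800473-1800722 (minus strand), LHCB2.3 at chr3:10255656-10255905 (plus strand), LHCB4.1 at chr5:208616-208865 (plus strand) and PSBR at chr1:29735702-29735951 (plus strand).
LHCB1.3: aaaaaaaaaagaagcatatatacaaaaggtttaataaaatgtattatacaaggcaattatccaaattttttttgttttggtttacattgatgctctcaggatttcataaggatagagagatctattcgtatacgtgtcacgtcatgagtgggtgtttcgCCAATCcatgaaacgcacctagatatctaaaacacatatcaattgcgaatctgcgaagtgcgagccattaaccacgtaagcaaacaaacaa
LHCB2.1: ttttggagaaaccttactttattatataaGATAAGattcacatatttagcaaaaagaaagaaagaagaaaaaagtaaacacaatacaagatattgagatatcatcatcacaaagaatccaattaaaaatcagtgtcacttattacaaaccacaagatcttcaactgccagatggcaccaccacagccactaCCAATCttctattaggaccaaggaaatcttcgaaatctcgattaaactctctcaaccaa
LHCB2.2: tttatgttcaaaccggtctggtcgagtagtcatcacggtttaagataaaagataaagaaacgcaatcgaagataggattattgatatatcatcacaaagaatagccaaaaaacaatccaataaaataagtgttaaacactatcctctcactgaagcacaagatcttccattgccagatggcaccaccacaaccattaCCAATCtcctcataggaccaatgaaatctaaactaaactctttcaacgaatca
LHCB2.3: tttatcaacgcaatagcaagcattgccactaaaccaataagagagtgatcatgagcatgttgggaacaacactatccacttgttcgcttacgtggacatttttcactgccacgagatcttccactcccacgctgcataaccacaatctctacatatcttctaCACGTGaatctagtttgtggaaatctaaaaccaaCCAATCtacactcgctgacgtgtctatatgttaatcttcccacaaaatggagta
LHCB4.1: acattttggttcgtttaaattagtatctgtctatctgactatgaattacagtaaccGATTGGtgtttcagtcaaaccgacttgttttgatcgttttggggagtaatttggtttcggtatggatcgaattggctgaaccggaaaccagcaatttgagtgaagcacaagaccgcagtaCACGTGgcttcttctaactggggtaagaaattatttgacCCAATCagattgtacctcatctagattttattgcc
PSBR: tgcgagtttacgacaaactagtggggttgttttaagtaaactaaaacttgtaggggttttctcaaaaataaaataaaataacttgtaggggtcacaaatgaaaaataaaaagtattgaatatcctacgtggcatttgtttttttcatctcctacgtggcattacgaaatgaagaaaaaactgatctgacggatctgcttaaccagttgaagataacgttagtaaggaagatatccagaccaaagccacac
In the 3 LHCB2 promoters the CCAATC motif lies on the gene's strand and begins 59, 53 and 54 bases before the start in LHCB2.1, LHCB2.2 and LHCB2.3. LHCB2.3 and LHCB4.1, the genes with the widest and the narrowest ratio, both hold CACGTG (beginning 88 and 74 bases before the start) and CCAATC (54 and 35 bases before it). PSBR held none of the 6 motifs in this window.

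TT against BT asked whether triploids with 2 fathers differ from triploids with 1 father. None of the 48 genes passed limma's test across all genes (Benjamini-Yekutieli adjusted p under 0.05 in 0 of 48, background 0%). At an unadjusted p under 0.05 it was also 0 of 48, where 4.38% of all 21450 genes were higher and 5.03% lower in TT. No gene of the 48 had groups that did not overlap, against 1.62% of all genes. By value alone, 43 of the 48 had a higher and 5 a lower mean in TT, with a median log2 fold change of 0.18 (range -0.19 to 0.55) beside 0.00 over all genes, and with quantile normalization the split was 34 higher and 13 lower. Without BT plant 5 the median was -0.04, and without BT plant 2 it was 0.29. Markers of the leaf mesophyll, which holds most of the photosynthetic tissue, had log2 fold changes of 0.34 to 0.50 in the same comparison (3 of 3 higher in value in TT, 0 of 3 at an unadjusted p under 0.05). Of 3 epidermis markers, all higher in value in TT, PDF1 passed that level (log2 fold change 0.53, limma unadjusted p = 0.00543, adjusted p = 1), as did 1 of 3 vasculature markers, SUC2 (0.31, limma unadjusted p = 0.0289, adjusted p = 1). The part of these tissues in the values of the 48 genes was not tested. The 0 of 48 was also found with edgeR's quasi-likelihood test, DESeq2's Wald test and limma voom on recovered reads, at adjusted and at unadjusted p alike.

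TT against BD set triploids with 2 fathers against diploids. Again 0 of 48 genes had an adjusted p under 0.05 (background 0%) and 0 of 48 an unadjusted p under 0.05, where 0.984% of all genes were higher and 1.41% lower in TT. Groups overlapped for all 48 genes, while 0.592% of all genes did not overlap. In value, 38 genes were higher and 10 lower in TT, with a median log2 fold change of 0.07 (range -0.17 to 0.32). Without BD plant 1 the median was -0.05 and without BD plant 3 it was 0.20. With quantile normalization the split was 28 higher and 19 lower.

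BT against BD asked for the effect of ploidy with a single father. No gene passed the adjusted threshold (0 of 48, background 0%) or an unadjusted p under 0.05 (0 of 48, where 0.774% of all genes were higher and 0.956% lower in BT), and all 48 overlapped (0.186% of all genes did not). In value, 46 genes were lower and 2 higher in BT, with a median log2 fold change of -0.10 (range -0.28 to 0.12). Without BT plant 5 the median was 0.11. With edgeR on recovered reads 39 were lower and 9 higher, and with quantile normalization 36 were lower and 10 higher. The 3 comparisons share plants, so that these splits are not independent of each other. The 95% confidence interval of a single gene had a median half-width of 0.59 log2 units in these fits. The half-width differed between genes and reached 0.99. In these fits, with 5 plants a group, a difference smaller than a gene's own half-width did not reach an unadjusted p under 0.05. The adjusted threshold is stricter, so that larger differences could be missed too. In BT against BD the smallest limma unadjusted p over all genes, 2.17e-04, did not pass it.

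**Figure D3:**
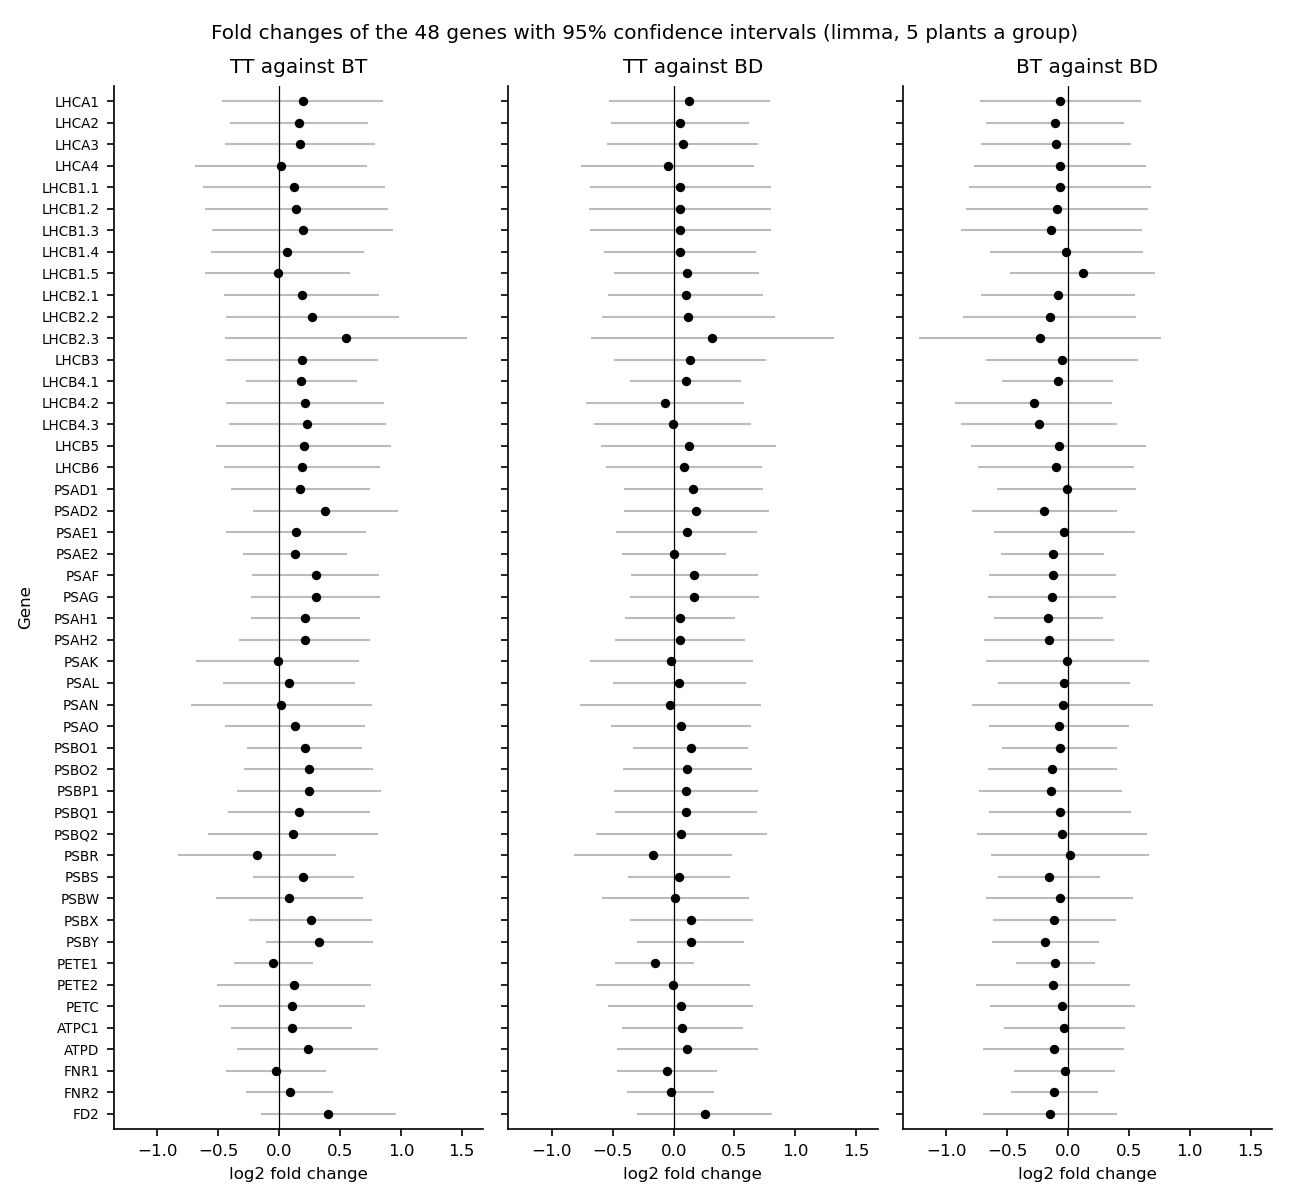
Log2 fold changes of the 48 genes (points) with 95% confidence intervals (grey lines) for TT against BT, TT against BD and BT against BD, from limma on log2(normalized count + 1) with 5 plants a group. All intervals include 0. Points lie mostly right of 0 in TT against BT (43 of 48) and left of 0 in BT against BD (46 of 48), and the median of either comparison changes sign without BT plant 5.

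Among the genes with the smallest unadjusted p in either direction, PSBY (AT1G67740), a small PSII subunit, had 27983, 39555, 37239, 37579 and 31488 normalized counts in TT plants 1 to 5, 25422, 37991, 29878, 30156 and 17892 in BT, and 23341, 36946, 38962, 27244 and 32714 in BD. BT plant 5 and BD plant 1 were the lowest, and the TT plants overlapped both other groups. The log2 fold change was 0.33 (standard error 0.20) in TT against BT and -0.19 (standard error 0.20) in BT against BD, with a Benjamini-Yekutieli adjusted p of 1 in limma's test for both. The unadjusted p in TT against BT was 0.125 with limma, 0.0429 on TPM and 0.0411 after quantile normalization. Without BT plant 5 the fold change was 0.175 in TT against BT and -0.03 in BT against BD, and without BT plant 2 it was 0.45 in TT against BT.

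FD2 (AT1G60950), the main leaf ferredoxin that takes electrons from PSI, had 59558, 74619.5, 77919, 82474 and 74151 normalized counts in TT, 46133, 79991, 65108, 69770.3 and 31188 in BT, and 48839.7, 83798, 72663, 44531 and 65930.4 in BD. The lowest TT plant was above 2 of the 5 plants of each other group, and the highest values overlapped. Its log2 fold change was 0.40 (standard error 0.26) in TT against BT and 0.26 (standard error 0.26) in TT against BD, and limma gave an adjusted p of 1 for both. Without BT plant 5 the first was 0.20, and without BD plant 4 the second was 0.14. PSAF (AT1G31330), the PSI subunit that docks plastocyanin, had 82661, 104975, 108908, 104701 and 96833 in TT, 74262, 122976, 79091, 99766 and 47191 in BT, and 74606, 110915, 98448, 74271 and 87478 in BD. TT again had no plant as low as the lowest of the others, and its log2 fold change in TT against BD was 0.17 (standard error 0.24), or 0.11 without BD plant 4.

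LHCB1.5, of the main trimeric antenna, and LHCB4.2 (AT3G08940), a CP29 form, stood at opposite ends in BT against BD. LHCB1.5 (AT2G34420) had 149822, 278329.9, 177548, 200807 and 130378 normalized counts in BT and 126230.3, 197013, 237462, 135739.8 and 160118 in BD, a log2 fold change of 0.12 (standard error 0.28). Its highest value was that of BT plant 2, and without that plant the fold change was -0.04. LHCB4.2 had 27978, 50336, 35050.4, 31555 and 13898 in BT and 27206, 49872, 42803, 25633 and 38763 in BD, a log2 fold change of -0.28 (standard error 0.30), which was -0.01 without BT plant 5. Both pairs of groups overlapped and limma gave an adjusted p of 1 for both genes.

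PSBR and PETE1 had values that ran apart from the other genes. PSBR had 70871, 107467, 95602, 135054 and 80630.5 normalized counts in TT, 82746, 103404, 175121, 122374 and 82235 in BT, and 63409, 99413, 182356, 130414 and 94833 in BD. BT plant 3 and BD plant 3 were the highest and BD plant 1 was the lowest, and the groups overlapped. The log2 fold change was -0.19 (standard error 0.30) in TT against BT, -0.17 (standard error 0.30) in TT against BD and 0.02 (standard error 0.30) in BT against BD. The value of TT against BT was -0.01 without BT plant 3, and that of TT against BD was 0.02 without BD plant 3.

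PETE1 had 4634, 5657, 5266, 6238 and 5137 in TT, 4141, 5321, 7066, 5978 and 5634 in BT, and 4528, 6233, 6202, 7404 and 5827 in BD. BT plant 3 and BD plant 4 were the highest, and BT plant 5, the lowest plant for most other genes, was in the middle, and the groups overlapped. Its log2 fold change was -0.05 (standard error 0.15) in TT against BT and -0.15 (standard error 0.15) in TT against BD, and limma gave an adjusted p of 1. The first of these was 0.04 without BT plant 3, and the second was -0.08 without BD plant 4.

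Both genes lie on the distal part of chromosome 1, from AT1G70250 onward, whose genes were raised in BT plant 3, BT plant 5 and BD plant 4. Each gene was expressed as the deviation from its median over the 15 plants, on the log2 scale. In BT plant 3, PSBR and PETE1 had a median of 0.57, against 0.01 for the 46 genes elsewhere, and 764 genes of the region had a median of 0.34. In BT plant 5 the pair had a median of -0.14, against -1.05 for the 41 genes outside both regions raised in that plant, with 0.24 over all genes of the region. In BD plant 4 it was 0.39 against -0.40, with 0.49 over all genes of the region. In the other 12 plants the pair differed from the other genes by -0.20 to 0.19. PETE1 stood 0.31, 1.05 and 0.79 above the other genes in BT plant 3, BT plant 5 and BD plant 4, and PSBR stood 0.81, 0.78 and 0.79 above them.

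Chromosome 4 carries 9 of the 48 genes, and its genes were raised in BT plant 2, with a median of 0.34 over 2463 genes. The 9 genes, LHCB5, PSAD1, PSAE1, PSAL, PSBQ1, PSBQ2, PETC, ATPC1 and ATPD, had a median deviation of 0.57 there (range 0.44 to 0.75), against 0.17 for the 39 genes elsewhere. All 9 were above that median and their differences from it were 0.58 for LHCB5, 0.56 for PSAD1, 0.45 for PSAE1, 0.43 for PSBQ2, 0.40 for PSAL, 0.37 for both PETC and ATPC1, 0.30 for ATPD and 0.26 for PSBQ1. PSAD1 and PSAE1 encode stromal PSI subunits, PETC the Rieske protein of the cytochrome b6f complex, and ATPC1 and ATPD subunits of the ATP synthase. LHCB5 (AT4G10340), a monomeric PSII antenna protein, had 125134, 170146, 166444, 189056 and 152612 normalized counts in TT, 115214, 263381, 156738, 170573 and 62718 in BT and 110542, 194109, 189249, 112044 and 145989 in BD, with BT plant 2 above all other plants of the series. In the other 14 plants the chromosome 4 genes differed from the rest by -0.09 to 0.09.

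Chromosome 5 carries 5 of the genes and was raised in BT plant 5, with a median of 0.31 over 3809 genes. LHCB3, LHCB4.1, PSAN, PSBO1 and FNR1 had a median deviation of -0.63 in that plant, against -1.05 for the 41 genes outside both raised regions. They were uneven, FNR1 standing 0.81 above the genes elsewhere, LHCB4.1 0.57 and PSBO1 0.42, but PSAN 0.15 and LHCB3 0.01. In the other 14 plants the difference was -0.04 to 0.14. Leaving out the 4 plants with raised regions left BT plants 1 and 4 as the only BT plants. The log2 fold change of PETE1 in TT against BT was then 0.11 and that of LHCB1.5 in BT against BD -0.02. In this setting 0 of 48 genes passed an adjusted or unadjusted p under 0.05 in any comparison. So few BT plants leave little power. The part of the regions in the group differences was not tested further.

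**Figure D4:**
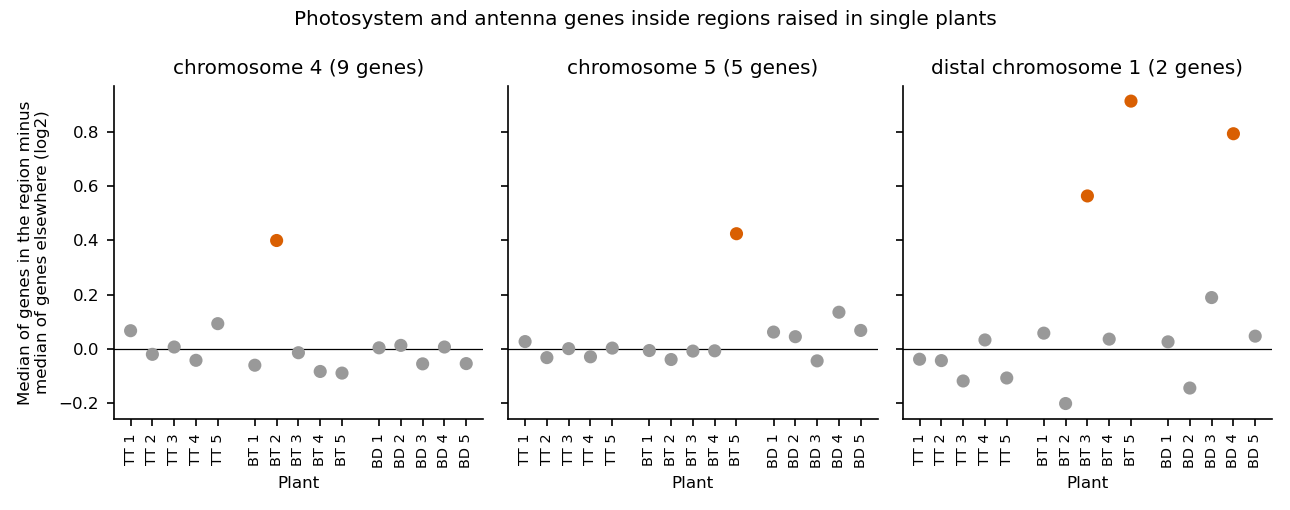
Median deviation of the genes in a region minus that of the genes elsewhere (log2 units, vertical axis) for each plant in the order TT, BT, BD, with 1 panel for chromosome 4, chromosome 5 and distal chromosome 1. Orange points mark the plants in which the whole region was raised, and these lie at 0.40, 0.42 and 0.56 to 0.91, whereas the grey points of the other plants lie between -0.20 and 0.19.

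For proteins encoded by sister genes, the share of the first gene in the summed TPM of the family was compared. Differences between groups passed no test in the 8 families. Of 24 comparisons by exact 2-sided permutation test of 5 against 5 plants, the smallest p was 0.0714 (PSAD1, 56.8 ± 2.35% in TT against 60.3 ± 3.06% in BT, SD, n = 5 each), and the Benjamini-Hochberg adjusted p was 0.992 for all. The smallest p that this design allows is 0.00794. PSAH1 had the most even share over the plants, 25.0 to 27.0% in TT, 24.8 to 28.6% in BT and 25.4 to 27.8% in BD. Its partner PSAH2 had 2390.1, 3172, 3048, 3076 and 3039 TPM in TT plants 1 to 5, 2402, 3172, 2801, 3055 and 1564 TPM in BT, and 2430.1, 3360.4, 3087, 2324 and 2842 TPM in BD, so that both genes were lowest in BT plant 5.

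PSAE1 (AT4G28750), a stromal PSI subunit, had the most uneven share, with 60.8, 59.3, 62.4, 59.9 and 61.1% in TT plants 1 to 5, 58.4, 70.2, 58.0, 60.3 and 54.7% in BT, and 57.2, 61.6, 58.1, 58.8 and 58.9% in BD. PSAE1 had 1398, 1593, 1592, 1682 and 1632 TPM in TT plants 1 to 5, 1327, 2403, 1399.9, 1701 and 800.3 TPM in BT, and 1266, 1701, 1593, 1252 and 1548 TPM in BD. PSAE2 (AT2G20260) had 901, 1093, 958, 1125 and 1037 TPM in TT plants 1 to 5, 944, 1022, 1015, 1121 and 662 TPM in BT, and 949, 1058, 1149, 876 and 1081 TPM in BD. The high value belonged to BT plant 2, in which chromosome 4 with PSAE1 was raised. PSAE2 lies on chromosome 2. PETE1 made up 5.42 to 6.41% of plastocyanin transcripts in TT, 5.34 to 11.7% in BT and 4.47 to 10.3% in BD. BT plant 5 and BD plant 4, both with a raised distal chromosome 1, had 11.7 and 10.3%, whereas BT plant 3, where this region was raised too, had 6.64%, and the other 12 plants had at most 7.58%. LHCB4.1 made up 82.7% of CP29 transcripts in BT plant 5, in which chromosome 5 with LHCB4.1 was raised, and at most 76.7% in the other plants. In that plant LHCB4.1 was itself at its lowest level of the series (2369 TPM), and so was LHCB4.2 (441 TPM). PETE2 was also at its lowest there (2490.5 TPM). The part of the raised regions in these shares was not tested.

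**Figure D5:**
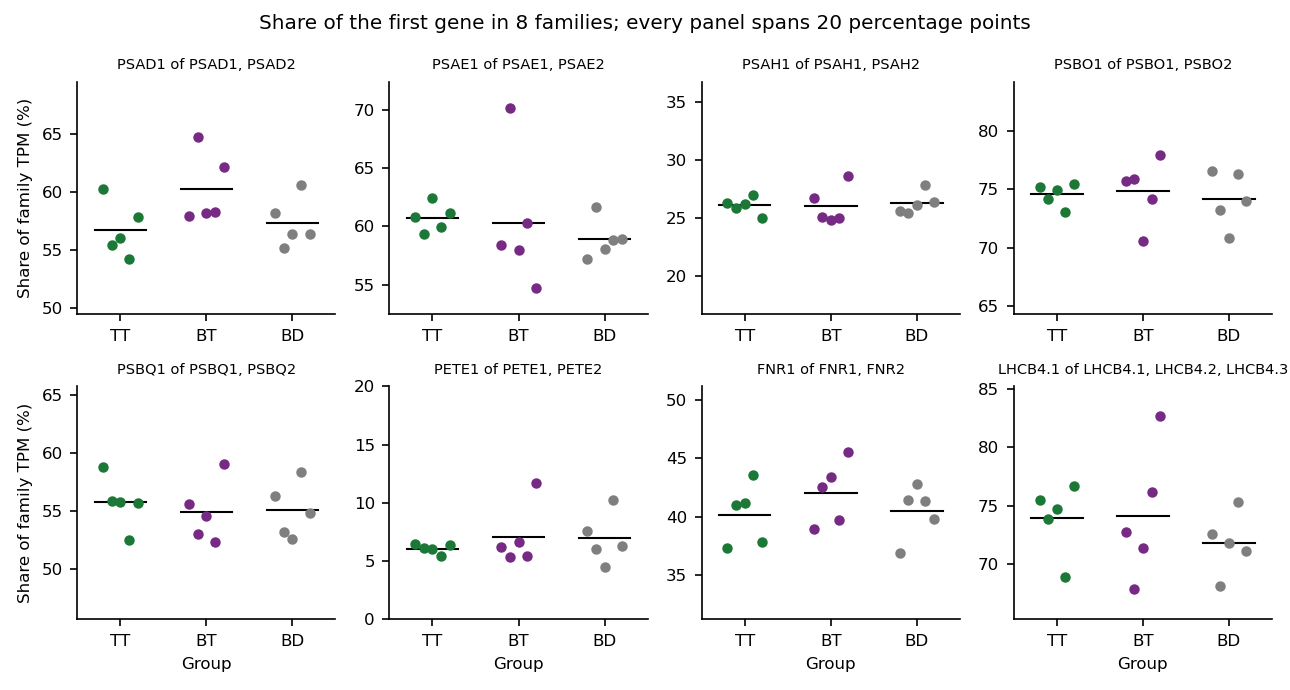
Share of the first gene in the summed TPM of its family (percent, vertical axis) for 8 families, with a point for each plant and a line at the group mean, in the order TT, BT, BD. Every panel spans 20 percentage points. Points at the top of their panels are PSAE1 in BT plant 2 (70.2%), LHCB4.1 in BT plant 5 (82.7%), and PETE1 in BT plant 5 (11.7%) and BD plant 4 (10.3%).

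Many other genes of photosynthesis followed the 48 from plant to plant, but not all. The Spearman coefficient to the summed counts of the 48 had a median of 0.82 (range 0.34 to 0.99) over 19 further nuclear photosynthesis genes and of 0.73 (range -0.04 to 0.98) over 16 chlorophyll synthesis genes, with GSA1 the lowest. The median deviation of the photosynthesis list was -0.62 in BT plant 5 and 0.37 in BD plant 3, and that of the chlorophyll list -0.63 and 0.25, beside -0.90 and 0.44 for the 48. In TT against BT, 15 of the 19 and 15 of the 16 had a higher value in TT, none with an adjusted p under 0.05. At an unadjusted p under 0.05, CHLD and CHLG, a subunit of magnesium chelatase and chlorophyll synthase, were higher in TT (log2 fold changes 0.40 and 0.34, limma adjusted p of 1), as was the thylakoid protein kinase STN8 (0.32), while the antenna phosphatase TAP38 was lower (-0.27). Of 13 regulators, SIG2 and SIG6, which direct the plastid-encoded RNA polymerase, were higher in TT than in BT at this level (0.33 and 0.24). These counts, 2 of 16, 1 and 1 of 19 and 2 of 13, stand beside the 4.38% of all genes that were higher and the 5.03% that were lower at that level.

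The 13 regulators of chloroplast genes were mixed, with Spearman coefficients to the summed counts of the 48 between -0.55 and 0.83 (median 0.22). The sigma factor gene SIG1 was the highest, and its normalized counts were lowest in BT plant 1 (2262) and BT plant 5 (2266). GLK1, a transcription factor that activates antenna genes, had the lowest coefficient and 4339.9 normalized counts in BT plant 5, within the 2955 to 4865 of the series. Among 16204 other genes averaging 50 or more normalized counts, the 5 with the highest Spearman coefficient to the summed counts of the 48 over 15 plants were AT4G34090 (0.993), AT4G01150 (0.986), which encodes the thylakoid curvature protein CURT1A, AT4G18740 (0.979), CHLM of chlorophyll synthesis (0.979) and PYL6, of the abscisic acid receptor family (0.971).

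Clock and senescence genes also differed between plants of a group. The 5 plants with the lowest summed level of the 48, namely TT plant 1, BT plants 1 and 5 and BD plants 1 and 4, were the 5 plants with the most TOC1 and the most ELF4, both clock genes expressed late in the day. TOC1 had 1910 normalized counts in TT plant 1, 2236 and 2869 in BT plants 1 and 5, and 2782 and 1568 in BD plants 1 and 4, and at most 1510.1 in the other 10 plants. ELF4 had 360.0 in TT plant 1, 470.3 and 838 in BT plants 1 and 5, and 662 and 476 in BD plants 1 and 4, and at most 290 in the other plants. Their Spearman coefficients to the summed counts of the 48 were -0.87 for TOC1 and -0.78 for ELF4. Over the 11 listed clock genes the median was -0.40 (range -0.87 to 0.75). ELF3 (-0.86), PRR5 (-0.80), GI (-0.49) and LUX (-0.40) were negative too. CCA1 (0.75), PRR9 (0.54), RVE8 (0.375) and LHY (0.17) were positive, and PRR7 had 0.01. The list pools genes of different times of day, so that its median does not show whether they ran together. The senescence marker SAG13 reached 7127 in BT plant 5 and 8704 in BD plant 4 and was at most 2779 elsewhere, while SAG12 had no value. DIN1, the other senescence marker with values, had 231 normalized counts in BT plant 5 and 86.8 in BD plant 4, within the 41.1 to 515 of the series, and its Spearman coefficient to the summed counts of the 48 was 0.68, against -0.59 for SAG13. TOC1, ELF4 and SAG13 were picked out after their values were seen, and their part in the level of the photosystem genes was not tested.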

How the data were processed

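RNA-seq was read from 15 plants. Per the submitters' processing notes and the study's methods, the authors trimmed reads with Trimmomatic 0.38, aligned them with STAR 2.6.0c to TAIR10, quantified them with Salmon 0.11.3 and normalized them with DESeq2 1.22, after dropping genes without counts in most plants of every group. Salmon shares reads between similar transcripts by estimate. The deposited tables hold counts divided by size factors (a normalized signal), rlog values on the log2 scale and TPM, each with the 4 technical replicates of a plant merged by the authors. Dividing by each plant's smallest step gave whole reads within 0.001 for 100% of normalized counts.

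Column names match the labels' groups and replicate numbers, 5 plants a group. log2(normalized count + 1) of all 21450 genes and 15 plants was fitted with limma 3.58.1 (trend, 2-sided, R 4.3.3), with Benjamini-Yekutieli adjustment and a threshold of 0.05, after the study's methods. As alternatives, 16 other settings were tried, among them a pseudocount of 0.5 or 5, a minimum mean count of 10, TPM + 0.1, rlog values, quantile normalization, edgeR 4.0.16, DESeq2 1.42.0 and voom on recovered reads and a replicate block, and each plant was left out in turn. The fits were tested on simulated data in which genes varied independently of each other. The photosystem genes moved together, so that this check does not cover their case. Shares of paralogues were compared by exact permutation (scipy 1.17.1), with Python 3.11.15, numpy 2.4.6, pandas 2.3.3 and matplotlib 3.10.9 for the rest.

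Gene names and promoters came from RefSeq TAIR10.1, in which 21283 gene identifiers and all 48 genes were found. The genes and lists were chosen with earlier results of these data known. Values per plant are given for 2 genes of either direction by smallest p in each comparison, the highest and lowest level of each class, the paralogue pairs with the most and least even share and the genes in raised regions. LHCB2.3, LHCB4.1, GSA1, SIG1, GLK1, TOC1, ELF4, SAG13 and DIN1 were named after their values were seen. The other listed clock genes are given as a full list, also after their values were seen. Intervals of motif shares are exact binomial ones at 95% and cover counting error only.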

Additional observations from a re-analysis of the deposited data

Results flagged for a closer look

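Within groups of 5 plants, 186 sets of values were searched for 1 plant that stood apart from the other 4 by Dixon's criterion, and 6 were found, where chance gives about 1 in 20 (9.3 of 186). In 4 of them it was TT plant 1 that was low. The PSI subunits summed to 2.78% of TPM in it, against 3.44 to 3.62% in the other TT plants, and the carriers and ATP synthase genes to 1.36%, against 1.57 to 1.62%. PSAG had 19759.8 normalized counts in TT plant 1, against 25367 to 26951 in the other TT plants, and FNR2 32385, against 36034 to 37201. LHCB1.3 stood high in TT plant 4 with 684253 normalized counts, against 457618 to 514620.4 in the other TT plants. The share of PETE1 among plastocyanin transcripts was 11.7% in BT plant 5, against 5.34 to 6.64% in the other BT plants.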

How the results depend on the processing

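Under the 16 other settings, 0 of 48 genes had an adjusted p under 0.05 in any of the 3 comparisons. The median log2 fold change of the 48 genes lay between 0.06 and 0.20 in TT against BT, 0.001 and 0.09 in TT against BD, and -0.14 and -0.05 in BT against BD. In TT against BD, 24 genes were higher and 24 lower without the 4 plants with raised regions. Some settings, such as the replicate block or another adjustment of p, cannot change a fold change. In TT against BT, 1 gene (PSBY) had an unadjusted p under 0.05 on TPM and 2 (PSBY and FD2) after quantile normalization, against 0 in limma on normalized counts. The fold change of PSBR in BT against BD was -0.011 with edgeR, -0.012 with DESeq2, -0.075 without the plants numbered 1 and -0.022 without the 4 plants with raised regions. Without those 4 plants, only BT plants 1 and 4 were left in BT. LHCB1.5 in BT against BD was then at -0.016 and PETE1 in TT against BT at 0.107. The cause of these changes was not tested.

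Leaving out 1 plant at a time, the adjusted count was 0 to 0 in each comparison. The unadjusted count was 0 to 1 in TT against BT (PSBY without BT plant 2) and 0 to 0 in the others. The median ran between -0.035 and 0.293 in TT against BT, -0.047 and 0.195 in TT against BD, and -0.212 and 0.114 in BT against BD. In BT against BD, PSBR ran between -0.173 and 0.208 and LHCB1.5 between -0.036 and 0.247. PETE1 in TT against BT ran between -0.154 and 0.038, and PSBR in TT against BD between -0.358 and 0.023.

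With a replicate block the counts were 0 in each comparison. The medians were 0.177, 0.066 and -0.095 in TT against BT, TT against BD and BT against BD, as without it. Every group holds the same plant numbers, so that the block could not change these medians. It could change p. The smallest limma unadjusted p among the photosystem genes fell from 0.125 to 0.0629 in TT against BT. It fell from 0.316 to 0.152 in TT against BD and from 0.361 to 0.251 in BT against BD. The numbers were not taken to pair plants: deviations of plants with the same number correlated above 0.1 in 3 of 5 pairs in each comparison (mean 0.165, 0.0637 and 0.0586), and 2, 2 and 3 of 5 plants correlated best with their own number. With 5 plants a group, the 95% interval of a gene spanned a median of 0.59 log2 units to either side. When 50 bases after the start were included, the share of promoters was 45.8% for GATAAG, 31.2% for CACGTG and 37.5% for CCAATC, against 14.8, 8.62 and 12.7% of all genes.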
